A study of Mus musculus with 10 samples.

Results

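Genes of glycolysis and of the fate of its product, pyruvate, were compared between platelet RNA of young mice, labelled P7 (taken as postnatal day 7), and of adult mice. The set was chosen by gene symbol and covers 39 of the 53819 gene symbols in the count files. It holds the glucose transporters, the glycolytic enzymes and their regulators, the lactate dehydrogenases and lactate carriers, the mitochondrial pyruvate carrier, and pyruvate dehydrogenase with its kinases and phosphatases. Each age had 5 RNA-seq libraries, lettered A, B, C, E, I among the young mice and A, B, C, G, H among the adults. Values below follow this order within each age. Both groups were labelled as platelets and no treatment or genetic change is named for either, and the sources used here do not give strain, sex, genotype or the age of the adults. Whether each library stands for its own animal or for a pool is not in the labels, so the p-values reflect spread among libraries that may be purely technical.

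Glycolysis splits glucose into pyruvate in the cytosol, with the steps of hexokinase, phosphofructokinase and pyruvate kinase as its main control points. Pyruvate is then either reduced to lactate and exported or carried into mitochondria, where the pyruvate dehydrogenase complex commits it to the citrate cycle unless a pyruvate dehydrogenase kinase has switched the complex off. Platelets are anucleate and carry RNA from their parent megakaryocytes. They hold few mitochondria, use both routes, and raise glucose uptake on activation through the transporter GLUT3.

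Total counts per library were 19431863 to 25029931, and a count of 0 allows a level of up to 0.120 to 0.154 CPM (counts scaled to a common library total), taken as 3 counts of the total, for counting error only. The labelled cell type was borne out by 14 of 14 platelet and megakaryocyte markers passing the filter on low counts, with summed levels of 64527 to 88836 CPM at P7 and 63383 to 94780 CPM in adults. Erythroid markers summed to 1036 to 2599 CPM at P7 and 595 to 1810 CPM in adults. Of 14 tested, 4 were higher and 0 lower. None of 22 was at 0 over both ages together. Slc4a1, Klf1 and Ermap had 30, 53 and 26 counts at P7 and 0 in adults, and none had counts in adults alone. Neutrophil markers summed to 4.02 to 8.40 CPM and 1.62 to 2.05 CPM (1 higher and 0 lower of 2 tested of 15), with Ly6g and Cxcr2 at 0 counts in each library. Monocyte and macrophage markers, mostly Lyz2, summed to 2243 to 3457 CPM at P7 and 2911 to 6085 CPM in adults. Of 3 tested of 12, 0 were higher and 1 lower. None was at 0 over both ages together. Cx3cr1 and Marco had 20 and 3 counts at P7 and 0 in adults, and none had counts in adults alone. Endothelial markers, mostly Vwf and Pecam1, which megakaryocytes also express, summed to 2584 to 5633 CPM and 2898 to 3825 CPM, with 2 higher and 0 lower of 6 tested of 8 and none at 0. For the scarcer lists the calls were 1 higher and 0 lower of 3 tested for B cells, 0 and 1 of 5 for T and NK cells and 0 and 1 of 1 for hepatocytes. The part of these other cell types in the results below was not tested. In bulk RNA of this kind, fewer cells of a type and less RNA per cell cannot be told apart.

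The 39 genes together took 0.741 to 1.24% of counts in the P7 libraries and 0.713 to 0.842% in the adult libraries. P7 I lay inside the adult range and the other 4 P7 libraries lay above it. Slc2a3, Pkm and Aldoa held 74.2% of these counts at P7 and 74.3% in adults. Of the 39 genes, 30 passed the filter and were tested. The remaining 9 (Hk2, Hk3, Pklr, Ldhb, Slc16a3, Pdhx, Pdk4, Pdp1 and Pdp2) had at most 59 counts in any library.

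Among the 30 tested genes, 8 were higher at P7 at an adjusted p under 0.05 and 0 were lower, in edgeR's quasi-likelihood test across all 8198 tested genes. Over all tested genes 13.8% were called higher and 13.9% lower, and for the genes of this set the shares were 26.7% and 0%. The 8 were the glucose transporter gene Slc2a3, the glycolytic enzyme genes Gpi1, Aldoc and Gapdh, the bisphosphoglycerate mutase gene Bpgm, the lactate and pyruvate carrier gene Slc16a1, the pyruvate dehydrogenase subunit gene Dlat and the pyruvate dehydrogenase kinase gene Pdk2. Log2 fold changes were above 0 for 27 of 30 genes (90%), against 52.7% of all tested genes, with a median of 0.53 against 0.05. Slc2a1, Pfkm, Pgam1, Slc16a1 and Dld had at least 10 counts in all 5 P7 libraries but not in all 5 adult ones, and Dlat had at least 10 in 4 P7 libraries and 1 adult library. Slc2a1, Slc16a1 and Dlat, with 1, 0 and 1 adult libraries at that count, passed the filter mainly through the P7 side. Counts over the tested genes therefore lean towards P7. Dld, Pfkm and Pgam1 had 3, 4 and 4 such adult libraries, and Pfkm had a log2 fold change below 0.

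**Figure D1:**
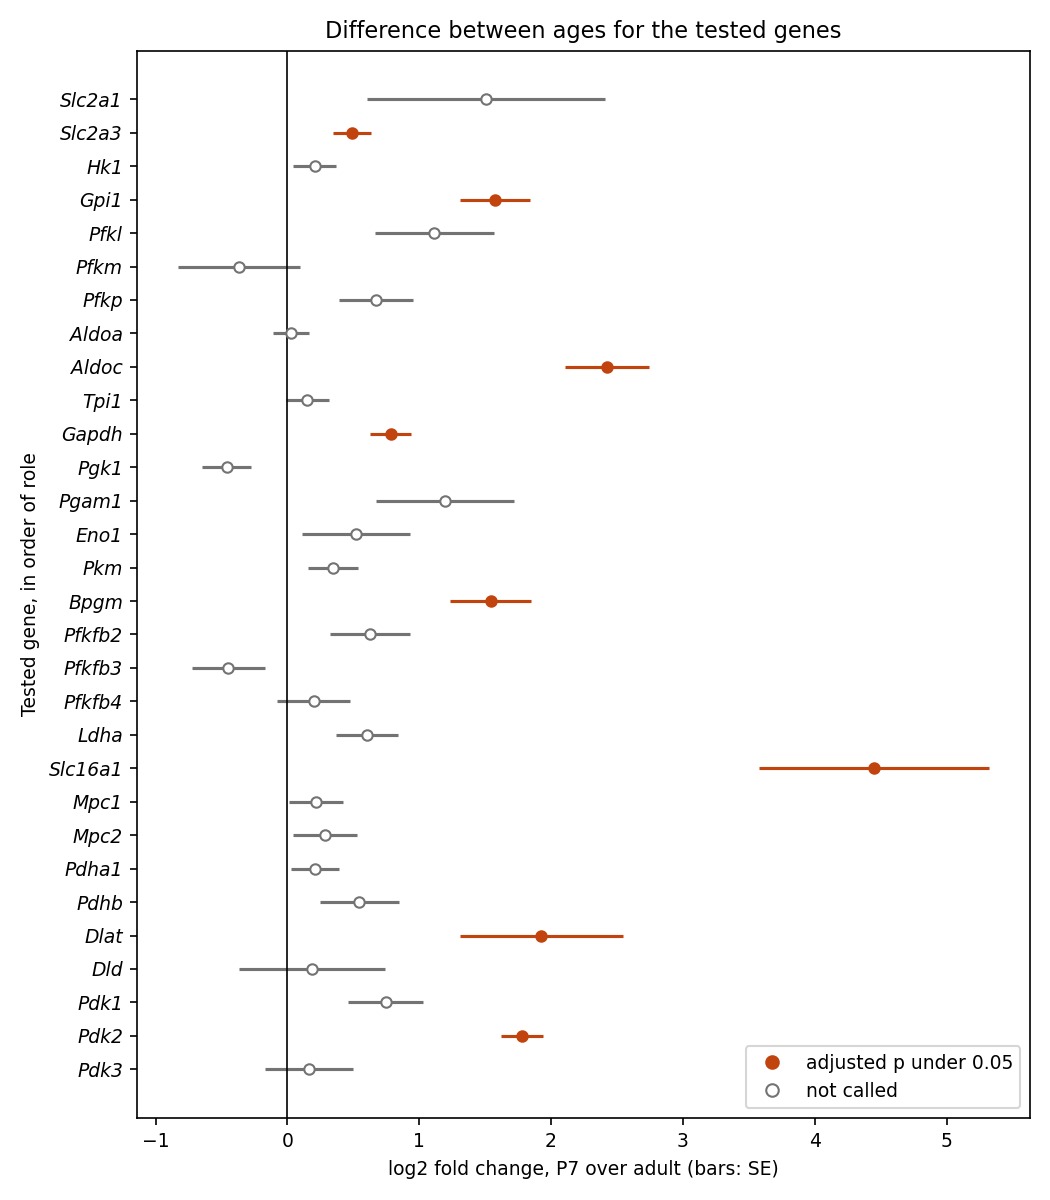
Log2 fold change of each tested gene (P7 over adult, horizontal axis) with its SE, ordered by role from transport to pyruvate dehydrogenase kinases. Filled points are the 8 genes with an adjusted p under 0.05, all to the right of 0, and Slc16a1 lies farthest out at 4.45 with the second widest error bar.

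Promoter sequences are shown for genes on which the comparison turns: Pdk2 and Aldoc, the called genes with the smallest p-values, Gapdh, the called gene of lower glycolysis, and Pgk1, the gene with the lowest fold change. They are the 250 bases before an annotated start, from RefSeq (GRCm38.p6), which gave windows for 37 of the 39 genes. Capitals mark ACGTG or GCGTG, the core of the hypoxia response element, on either strand. The windows are, in this order, chr11:95041372-95041621 (minus strand), chr11:78322823-78323072 (plus strand), chr6:125165774-125166023 (minus strand) and chrX:106186850-106187099 (plus strand).
Pdk2: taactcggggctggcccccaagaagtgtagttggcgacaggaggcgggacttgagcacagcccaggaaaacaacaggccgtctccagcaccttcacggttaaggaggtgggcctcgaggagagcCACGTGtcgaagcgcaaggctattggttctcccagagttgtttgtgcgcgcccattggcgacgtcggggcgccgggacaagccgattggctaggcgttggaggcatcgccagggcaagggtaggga
Aldoc: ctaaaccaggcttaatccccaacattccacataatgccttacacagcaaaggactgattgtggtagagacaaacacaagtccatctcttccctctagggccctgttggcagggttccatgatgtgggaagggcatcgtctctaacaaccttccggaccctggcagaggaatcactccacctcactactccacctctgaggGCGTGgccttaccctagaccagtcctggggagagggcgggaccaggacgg
Gapdh: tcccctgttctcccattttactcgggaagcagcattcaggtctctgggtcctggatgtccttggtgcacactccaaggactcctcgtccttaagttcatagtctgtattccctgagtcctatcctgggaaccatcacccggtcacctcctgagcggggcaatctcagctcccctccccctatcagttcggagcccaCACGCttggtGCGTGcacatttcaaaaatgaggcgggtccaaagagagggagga
Pgk1: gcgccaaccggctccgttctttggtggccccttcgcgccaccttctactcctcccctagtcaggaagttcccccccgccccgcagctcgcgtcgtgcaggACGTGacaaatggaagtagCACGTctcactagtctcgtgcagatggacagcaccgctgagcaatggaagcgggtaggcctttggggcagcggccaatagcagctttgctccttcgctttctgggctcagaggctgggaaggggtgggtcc
In the Pdk2 window the capitals form CACGTG, which holds ACGTG on both strands. The windows of Pdk2, Aldoc and Gapdh, higher at P7, and of Pgk1, which was not, hold a core. A window at another annotated start of Pdk2 (chr11:95040876-95041125) holds none. Of the other genes called higher, Gpi1, Bpgm and Dlat have no core in their windows, and Slc2a3 had no window. The Slc16a1 window has 2 matches to ACGTG and 2 to GCGTG. Over the 55 windows of this gene set, which overlap for some genes, ACGTG was in 38.2% and GCGTG in 50.9%, against 16.6% and 28.2% of 32851 windows in the table. CACGTG was in 12.7% against 6.02%, GATAA in 23.6% against 22.6% and GGGCGG in 52.7% against 32.7%, each counted on both strands. These matches describe the sequence and not binding, and the windows were not matched for GC content.

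Glucose entry was read almost wholly from a single transporter gene. Slc2a3, which encodes GLUT3, stood at 3750, 2906, 3741, 3809 and 2628 CPM in the P7 libraries and 2470, 1937, 2187, 2440 and 2951 CPM in the adult libraries. The groups overlapped, since adult H was higher than P7 B and I. The log2 fold change of Slc2a3 was 0.49 ± 0.15 (SE; the quasi-likelihood test of edgeR, with Benjamini-Hochberg adjustment, gave an adjusted p = 0.0219), a 1.40-fold difference. This call was lost without any 1 of P7 A, C and E and adult B and C, at log2 fold changes of 0.41 to 0.45. Slc2a1, which encodes the transporter GLUT1, had 12 to 17 counts in each P7 library and 0, 5, 17, 0 and 0 counts in the adult libraries. Adult C was thus as high as the P7 libraries in raw counts while the other adults were near 0. Slc2a1 was not called (log2 fold change 1.51 ± 0.90, SE), but it was without adult C, at 3.27, and in limma-voom, at 2.98. Per kilobase of its longest annotated coding transcript, Slc2a3 had levels of 850 CPM (P7) and 605 CPM (adult), against 0.186 and 0.0640 CPM for Slc2a1.

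Hexokinase, which traps glucose as its phosphate, was likewise represented by a single gene at both ages. Hk1 ran from 646 to 1233 CPM at P7 and from 635 to 895 CPM in adults, with a log2 fold change of 0.21 ± 0.17 (SE, edgeR's adjusted p = 0.390). Hk2, the insulin-responsive isozyme of muscle and fat, had 6 counts over the 5 P7 libraries and 14 over the 5 adult ones, 12 of them in adult G. Hk3, a leukocyte isozyme, had 13 counts in P7 C and 3 in P7 E and 0 in the other 8 libraries. Hk1 held 99.98% of hexokinase counts in both groups.

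In upper glycolysis, Gpi1, Aldoc and both abundant phosphofructokinase genes had higher means at P7, of which Gpi1 and Aldoc passed the test. Gpi1, which encodes glucose phosphate isomerase, stood at 17.6, 22.6, 39.5, 19.1 and 15.2 CPM in the P7 libraries and 10.4, 7.65, 6.14, 7.28 and 6.83 CPM in the adult libraries. Every P7 library was above every adult one, with P7 C highest. The log2 fold change of Gpi1 was 1.57 ± 0.26 (SE, edgeR's adjusted p = 0.000554), or 1.28 without P7 C. Of its 75-base stretches, 14.8% also occur in other annotated transcripts, part of them in an antisense gene that covers 11.5% of its exonic bases.

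Phosphofructokinase, the committed step, was divided between Pfkl and Pfkp, with little Pfkm. Pfkl, the liver-type gene, was at 13.5, 11.9, 49.1, 19.7 and 11.4 CPM in the P7 libraries and 4.07 to 15.6 CPM in adults. P7 C stood well above the other P7 libraries, and the log2 fold change of Pfkl went from 1.12 ± 0.45 (SE) to 0.53 without it. Neither value passed the test, though Pfkl was called in DESeq2. Pfkp, the platelet-type gene, was at 8.72 to 22.2 CPM at P7 and 6.64 to 16.2 CPM in adults (log2 fold change 0.67 ± 0.28, SE). Pfkp was not called with all 10 libraries and was called without P7 I or adult H, at 0.84 in both. Pfkm, the muscle type, had 0.724 to 1.96 CPM and 0.344 to 2.63 CPM, with a log2 fold change of -0.37 ± 0.46 (SE).

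Aldolase, which cleaves the hexose bisphosphate, showed unequal differences in its isozymes. Aldoa, the major form, had means of 1021 ± 132 CPM in young and 1001 ± 144 CPM in adult libraries (SD, n = 5 each), with a log2 fold change of 0.03 ± 0.14 (SE). Aldoc, the brain-type isozyme, stood at 11.1, 10.3, 19.3, 10.7 and 8.03 CPM in the P7 libraries and 2.15, 1.03, 2.05, 3.21 and 2.64 CPM in the adult libraries. The groups did not overlap, and Aldoc rose by 2.42 ± 0.32 on the log2 scale (SE, edgeR's adjusted p = 9.1e-05), a 5.36-fold difference. Aldoc remained the minor form at both ages, at 0.876 to 1.54% of aldolase counts at P7 and 0.108 to 0.399% in adults. For the share, a two-sided exact permutation test gave p = 0.00794, the smallest that 5 against 5 can give. Adjusted over the 9 isozyme shares examined it was 0.0714, the lowest value that a single share could reach, so the adjusted test could not have passed for this share alone.

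**Figure D2:**
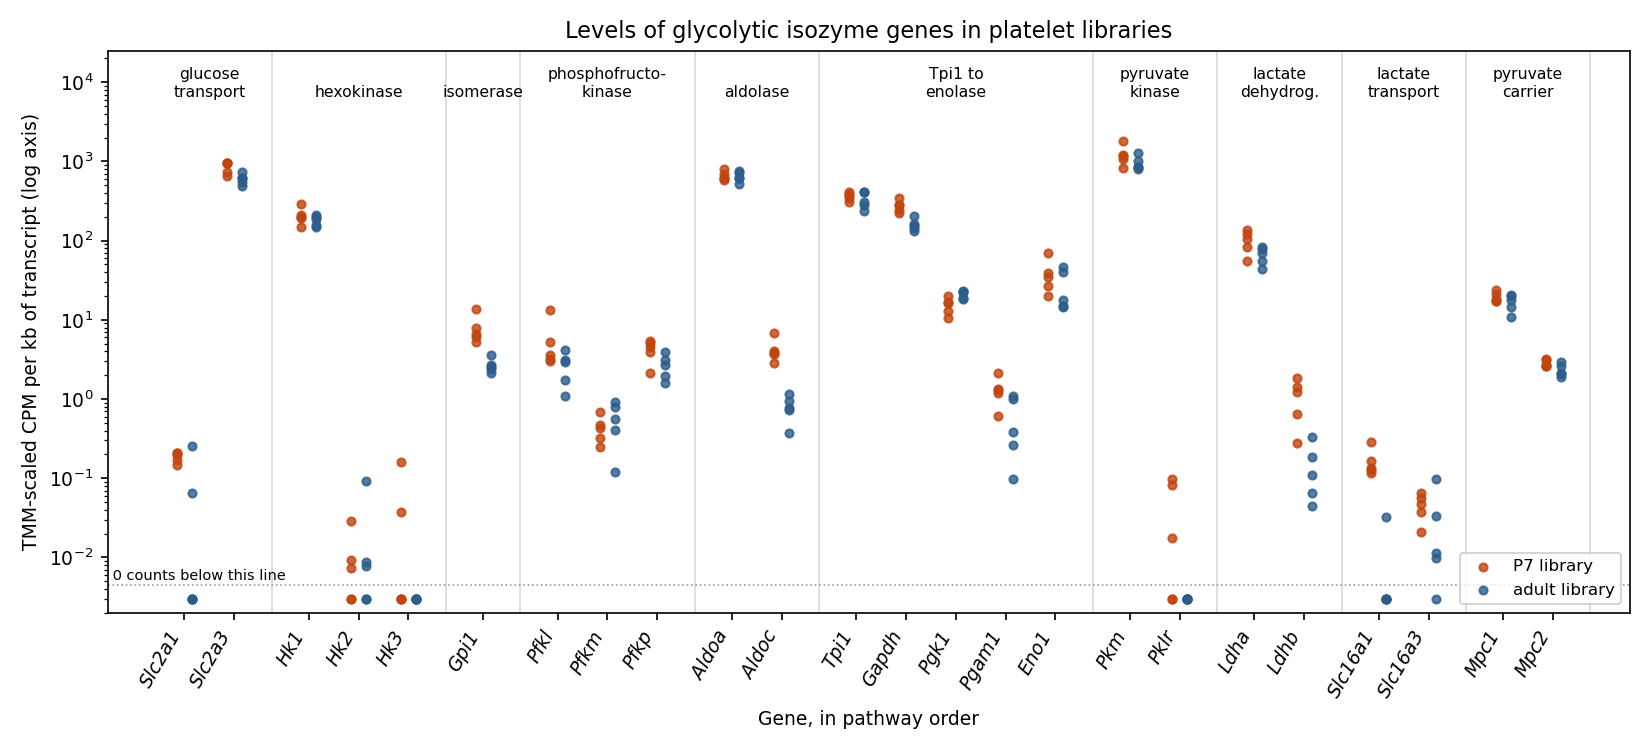
TMM-scaled CPM per kilobase of the longest annotated coding transcript, on a log axis, for each transporter and isozyme gene in pathway order. Each point is a library, P7 left and adult right of each tick, and points under the dotted line are libraries with 0 counts. Slc2a3, Hk1, Aldoa, Pkm and Ldha lie far above the other genes of their families in both groups.

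From the triose phosphates to pyruvate, Gapdh was the gene that passed the test. Tpi1, which interconverts the triose phosphates, had 495 to 663 CPM at P7 and 381 to 667 CPM in adults, with a log2 fold change of 0.15 ± 0.17 (SE). Gapdh, whose product makes the NADH of glycolysis, stood at 313, 405, 485, 397 and 349 CPM in the P7 libraries and 220, 289, 207, 228 and 188 CPM in the adult libraries. Every P7 library exceeded every adult one for Gapdh, with a log2 fold change of 0.78 ± 0.16 (SE, edgeR's adjusted p = 0.00194), and with the GC trend removed the value was 0.47. Of the 75-base stretches of the Gapdh transcript 80.3% also occur in other annotated transcripts, from 121 genes, so its count depends on how shared reads were treated.

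Pgk1, whose product makes the first ATP of the pathway, had the lowest log2 fold change of all 30 genes, at -0.46 ± 0.18 (SE, edgeR's adjusted p = 0.0776). It stood at 29.9, 30.5, 36.1, 23.8 and 19.1 CPM in the P7 libraries and 41.0, 42.5, 40.6, 34.2 and 33.6 CPM in the adult libraries. P7 C was the single P7 library inside the adult range, and Pgk1 was called lower without it, at -0.57, as well as in DESeq2, at -0.48. For Pgk1, 67.5% of the 75-base stretches are found in other transcripts, so its count is uncertain as well. Eno1, an enolase gene with 65.4% shared stretches, ranged from 40.7 to 143 CPM at P7 and from 29.3 to 92.9 CPM in adults. Adult A and B were above all P7 libraries but P7 C in Eno1 and the other adults were below all of them, and the log2 fold change of 0.52 ± 0.41 (SE) did not pass. Pgam1, the mutase gene between Pgk1 and Eno1, had 1.10 to 3.78 CPM and 0.172 to 1.96 CPM (log2 fold change 1.20 ± 0.52, SE, not called), with 40.6% shared stretches.

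Pyruvate kinase, the last step, was read from Pkm. Of the 75-base stretches of Pkm, 19.6% also occur in other annotated transcripts, and a gene on the same strand covers 15.3% of its exonic bases. Pkm had 2868, 2925, 4352, 2642 and 2040 CPM in the P7 libraries and 3103, 2474, 2094, 2070 and 1937 CPM in the adult libraries. P7 C stood above the rest and the other 4 P7 libraries lay within the adult range, with a log2 fold change of 0.34 ± 0.19 (SE, edgeR's adjusted p = 0.191). Pklr, the red cell and liver gene, had 1, 7 and 6 counts in P7 B, C and E and 0 counts in the other 7 libraries. Per kilobase, Pkm was the most abundant of the 39 genes, with 1219 CPM (P7) and 960 CPM (adult), followed by Slc2a3 at P7 and by Aldoa and Slc2a3 in adults, whose levels were close.

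Bpgm and the bifunctional kinase-phosphatase genes set side branches of glycolysis. Bpgm, whose product makes the bisphosphoglycerate that lowers the oxygen affinity of haemoglobin in red cells, stood at 5.27, 4.44, 7.12, 3.36 and 4.02 CPM in the P7 libraries and 2.20, 2.36, 1.36, 1.37 and 0.975 CPM in the adult libraries. The groups did not overlap, and Bpgm rose by 1.54 ± 0.31 on the log2 scale (SE, edgeR's adjusted p = 0.0021). Among erythroid markers the heme synthesis gene Fech moved the same way, with a mean of 105 ± 29.3 CPM against 25.6 ± 7.24 CPM (SD, n = 5 each). The alpha-globin gene Hba-a1, at 1493 ± 577 CPM against 905 ± 505 CPM (SD, n = 5 each), was not called. Over the erythroid list, 13 of 14 tested genes (92.9%) had log2 fold changes above 0, against 52.7% of all tested genes. Their median was 1.14, and 4 were called higher and 0 lower. The part of red cell RNA in the Bpgm difference was not tested. The Pfkfb genes make and remove the sugar bisphosphate that activates phosphofructokinase. Pfkfb4 was the most abundant of them, at 43.2 to 99.4 CPM at P7 and 30.2 to 80.3 CPM in adults, with a log2 fold change of 0.20 ± 0.28 (SE). Pfkfb2 and Pfkfb3 had log2 fold changes of 0.63 ± 0.30 and -0.45 ± 0.28 (SE), and none of the 3 Pfkfb genes was called.

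Lactate dehydrogenase, which returns NAD for glycolysis, came almost wholly from Ldha. Ldha stood at 149, 188, 250, 223 and 99.5 CPM in the P7 libraries and 152, 126, 100, 80.7 and 141 CPM in the adult libraries. P7 B, C and E were above all adults and P7 I was below 4 of the 5, and the log2 fold change of 0.60 ± 0.24 (SE, edgeR's adjusted p = 0.0712) did not pass. Ldha was called in 4 alternatives, at 0.69 with library size only, 0.67 with upper quartile scaling, 0.66 when genes under 10 CPM were filtered out and 0.75 when P7 I was left out. Ldhb, the isozyme of oxidative tissues, had 40, 7, 59, 21 and 40 counts in the P7 libraries and 3, 2, 5, 10 and 1 in the adult libraries. P7 B lay within the adult range. Ldhb did not pass the filter in the main fit and has no test there. With no filter, or with 1 library left out, 7 alternatives tested Ldhb and called it higher, at 2.60 to 3.31. Those fits share most of their libraries, so they are not separate evidence for Ldhb. Its share of lactate dehydrogenase counts was 0.875 ± 0.636% in young and 0.195 ± 0.202% in adult libraries (SD, n = 5 each), and an exact permutation test, two-sided, gave p = 0.0635 (0.286 adjusted over 9 shares).

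The proton-linked carriers of lactate and pyruvate were scarce at both ages. Slc16a1, which encodes MCT1, had 18, 11, 32, 13 and 13 counts in the P7 libraries and 3, 0, 0, 0 and 0 counts in the adult libraries. All P7 libraries were above all adult ones. The summed counts, 87 and 3, gave a ratio of scaled levels of 26.4 (exact Clopper-Pearson 95% interval 8.73 to 130.4, counting error only). The fitted log2 fold change of Slc16a1 was 4.45 ± 0.87 (SE, edgeR's adjusted p = 0.00181) and 7.05 without adult A, the sole adult library with counts. Slc16a1 passed the filter only through the P7 side, with at least 10 counts in 5 P7 and 0 adult libraries. Its separation of the ages and its adjusted p are therefore no separate support for the difference. MCT1 is also a red cell carrier, and the erythroid values given beside Bpgm apply here as well, and their part in the Slc16a1 difference was not tested. Slc16a3, which encodes the lactate exporter MCT4 of glycolytic cells, had at most 10 counts in a library and overlapping groups, with 23 counts over the P7 libraries and 15 over the adult ones.

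**Figure D3:**
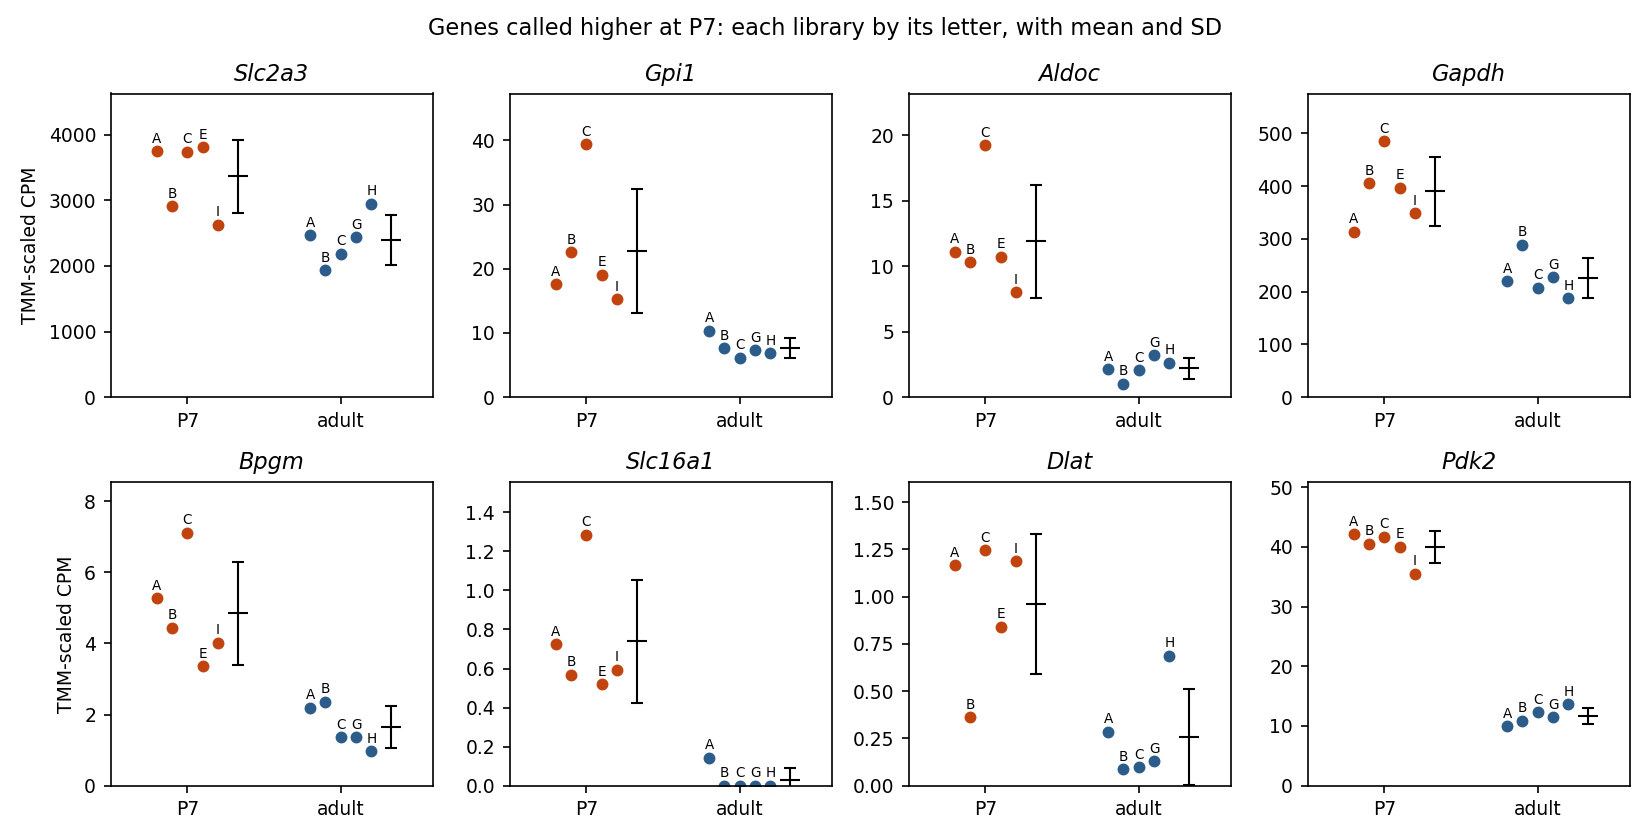
TMM-scaled CPM of the 8 genes called higher at P7, from 0, with each library marked by its letter and the mean and SD (n = 5) beside it. Slc2a3 and Dlat overlap between the ages and the other 6 do not, and P7 C is the highest library in Gpi1, Aldoc, Gapdh, Bpgm, Slc16a1 and Dlat.

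On the mitochondrial side, neither carrier gene and 1 of 4 tested pyruvate dehydrogenase subunit genes was called, while a kinase gene had the smallest p-value of the set. Mpc1 and Mpc2, the subunits of the inner-membrane pyruvate carrier, had log2 fold changes of 0.22 ± 0.20 and 0.28 ± 0.24 (SE) and were not called. Pdha1, the alpha subunit of the decarboxylating enzyme, had 17.4 to 22.6 CPM at P7 and 13.2 to 21.4 CPM in adults (log2 fold change 0.21 ± 0.18, SE). Pdhb, its beta subunit, was at 0.55 ± 0.30 and Dld, the shared dehydrogenase subunit, at 0.18 ± 0.55, neither called. Dlat, the acetyltransferase core, had 29, 7, 31, 21 and 26 counts in the P7 libraries and 6, 2, 2, 3 and 12 in the adult libraries. P7 B lay within the adult range. The log2 fold change of Dlat was 1.93 ± 0.62 (SE, edgeR's adjusted p = 0.0307), and the call was lost without any 1 library except P7 B or adult H, at 1.68 to 1.97. Pdhx, the binding subunit, had 43 counts over the P7 libraries and 16 over the adult ones.

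Pdk2, a kinase that inactivates pyruvate dehydrogenase, stood at 42.1, 40.5, 41.7, 40.0 and 35.5 CPM in the P7 libraries and 9.98, 10.9, 12.3, 11.5 and 13.6 CPM in the adult libraries. The lowest P7 library was well above the highest adult one, and the spread within each age was small. The log2 fold change of Pdk2 was 1.78 ± 0.16 (SE, edgeR's adjusted p = 8.22e-06), a 3.43-fold difference, with the smallest p of the 30 genes. It was called in 21 of 21 alternative fits, at 1.46 to 1.88. Pdk1, the more abundant kinase gene, stood at 90.3, 94.3, 180, 149 and 93.3 CPM in the P7 libraries and 78.9, 65.0, 30.7, 94.0 and 93.3 CPM in the adult libraries. P7 A, B and I were level with adult G and H, and Pdk1 at 0.75 ± 0.29 (SE, edgeR's adjusted p = 0.066) did not pass, although it did in 4 alternatives. Pdk3 had a log2 fold change of 0.16 ± 0.33 (SE), and Pdk4, a kinase induced by fasting in muscle and heart, had 0 counts in all 10 libraries. Per kilobase, Pdk2 had levels of 17.8 CPM (P7) and 5.19 CPM (adult), against 23.4 and 14.0 CPM for Pdk1. The opposing phosphatase genes were near the limit of detection, Pdp1 with 47 and 15 summed counts and Pdp2 with 9 and 4.

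**Figure D4:**
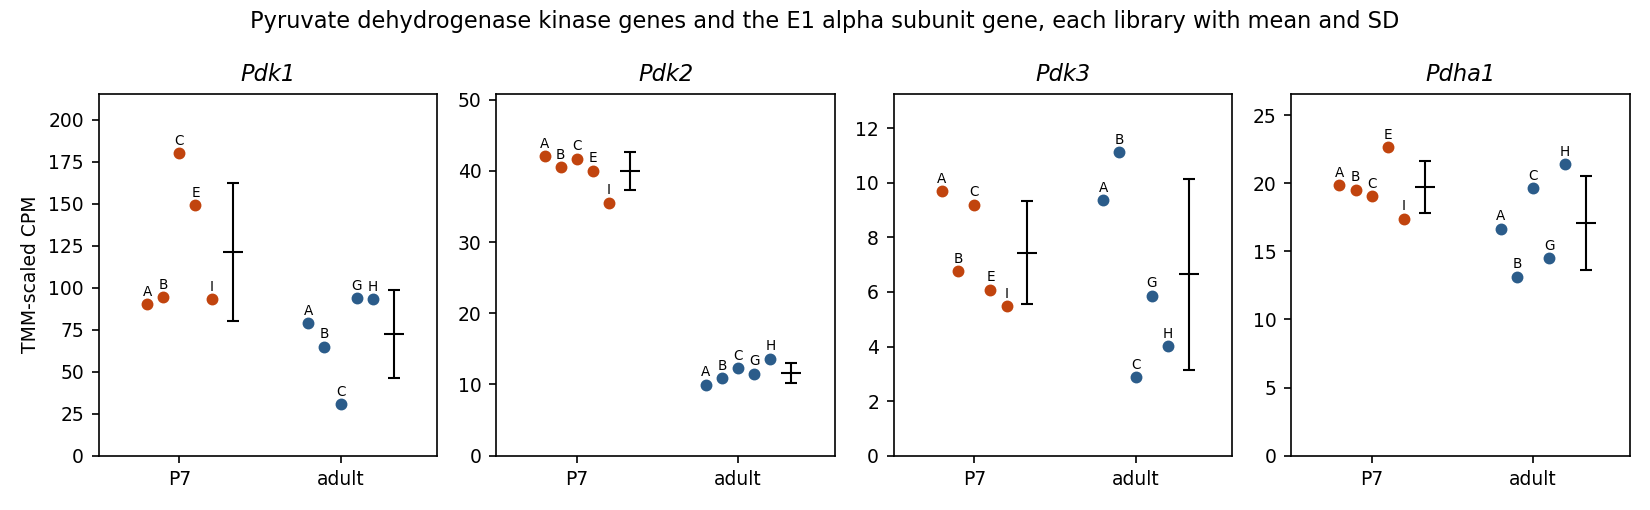
TMM-scaled CPM, from 0, of the 3 detected pyruvate dehydrogenase kinase genes and of Pdha1, which encodes the subunit they phosphorylate, with each library marked by its letter and the mean and SD (n = 5) beside it. Pdk2 separates the ages with no overlap, while Pdk1, Pdk3 and Pdha1 overlap.

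Library P7 C had the highest level of the 10 libraries in 15 of the 30 tested genes. Without P7 C, 6 genes were higher and 1 lower, Slc2a3 and Dlat losing their call and Pgk1 gaining one. Gpi1, Aldoc, Gapdh, Bpgm, Slc16a1 and Pdk2 passed without it. For these 6 of the 30 tested genes (20%) the groups did not overlap, all with the higher level at P7, against 19.8% of all tested genes with no overlap in either direction and 10.1% with the higher level at P7. Slc16a1 is among the genes that passed the filter through the P7 libraries, so its lack of overlap carries no weight in this count. The transcripts of Slc2a3, Aldoc, Bpgm, Slc16a1, Dlat and Pdk2 shared no 75-base stretch with another annotated transcript. Besides the genes with shares given above, Mpc1, Pfkfb2, Pdhb, Pfkp and Pdha1, none of them called, shared 24.8, 24.3, 19.9, 16.6 and 13.9%. Fold changes rose with transcript GC content across all tested genes (Spearman's rho 0.28 over 8028 genes, which are not independent replicates), and the 30 genes had a median GC content of 51.7% against 49.7% overall. With this trend removed, 9 were called higher and 1, Pgk1, lower, and 22 of 30 log2 fold changes were above 0. Their median was then 0.47 against 0.00528 over all 8198 tested genes, of which 2063 were called in either direction.

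Neighbouring pathways gave a setting for these values, from lists with the same test and no set test. Over all tested genes 13.8% were called higher and 13.9% lower. Of 14 tested further genes of glycolysis and pyruvate handling, 4 were higher and 0 lower, with a median log2 fold change of 0.49. They were Gpd1, which feeds glycolytic NADH towards glycerol phosphate, at 2.77, the urate and hexose transporter gene Slc2a9 at 1.02, the mutase gene Pgam2 at 1.24, and Bsg, whose product escorts MCT1 and MCT4 to the membrane, at 0.65. In the pentose phosphate pathway 2 were higher and 1 lower of 8. G6pdx, the entry enzyme, rose by 0.54 and Pgls by 1.81, while Pgd, the second dehydrogenase, fell by 1.02. Of 17 citrate cycle genes 6 were higher and 0 lower, among them Idh2 at 2.04, Fh1 at 1.64, Ogdh at 1.01 and Idh3g at 0.80. Of 20 glycogen genes 1 was higher, Pgm2 at 1.24, and 2 lower, Gsk3b at -0.82 and Ppp1r3b at -1.91.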

How the data were processed

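Single-end reads of 75 nt came from platelet RNA amplified by SMARTer chemistry from 1 ng of total RNA, with Nextera XT libraries made from 150 pg of cDNA, per the labels' protocols. For each library the authors deposited unnormalized read counts by gene symbol. The tools listed, per the submitters' processing notes, are STAR 2.7.9a, featureCounts (Subread 2.0.1), Salmon 1.5.2 and fastp 0.23.1, without their roles. Genome build, strand setting and the handling of shared reads are not stated in those sources. This kind of library does not mark strand, so reads of overlapping antisense genes cannot be told apart.

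Genes passing filterByExpr (minimum count 10, minimum total 15) were TMM-scaled and tested in edgeR 4.0.16 (R 4.3.3, limma 3.58.1), quasi-likelihood F test with robust dispersions, age as the only term and Benjamini-Hochberg adjustment over 8198 genes. CPM use the TMM factors, and an SE beside a log2 fold change is from the fit. Isozyme shares of counts, for families with at least 20 counts in each library, were compared by exact permutation; the Slc16a3 share fell under that minimum. Lengths, GC content and shared 75-base stretches came from the longest coding transcript in GENCODE M21, matched by symbol (97.9% of tested genes). Scripts were tested on simulated data.

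The genes, lists and tests were chosen with earlier results of these data known. Named genes were all 39 members, with values per library for called ones and abundant ones (mean of at least 20 CPM), up to 4 called genes of each neighbouring list and the 2 most abundant markers of a list where a result touches them. Values per library are also printed for some scarcer genes, chosen after they were seen. Alternatives were other scalings, filters, tools (DESeq2 1.42.0, limma-voom) and thresholds, GC correction, gene removal, letters A to C and each library left out.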

Additional observations from a re-analysis of the deposited data

Results flagged for a closer look

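A library was set apart where its gap to the nearest of the other 4 of its age exceeded 0.71 of the group's range (Dixon's criterion). For independent, normally distributed values that happens in about 1 of 20 groups. Here it happened in 8 of the 78 groups examined. Some of these hold few counts or shares near 100%, and they share libraries, so the 8 cannot be set against that rate. Adult C had 0.829 CPM of Slc2a1, where the other adults had 0 to 0.215 CPM. P7 C had 49.1 CPM of Pfkl, against 11.4 to 19.7 CPM in the other P7 libraries, 19.3 CPM of Aldoc against 8.03 to 11.1 CPM, and 1.29 CPM of Slc16a1 against 0.520 to 0.724 CPM. P7 A had 14.9 CPM of Pfkfb3, against 9.12 to 10.2 CPM. Adult A had 0.143 CPM of Slc16a1, where the other adults had 0. In adult G the share of Hk1 in hexokinase counts was 99.92%, against 99.99% to 100% elsewhere among adults, and in adult H the share of Pfkp in phosphofructokinase counts was 78.6%, against 37.8 to 46.3%.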

How the results depend on the processing

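With each library left out in turn, 6 to 10 genes of the set were called higher and 0 to 1 lower, the 1 being Pgk1 without P7 C. All genes called then ran from 1843 without P7 C to 2394 without P7 I. DESeq2 and removal of the GC trend also gave 1 lower gene, Pgk1. All genes called numbered 2272 in the main fit, and 1215 with a filter of 10 CPM and 1228 at an adjusted p under 0.01. The letters A to C are shared by both ages, and deviations of same-lettered libraries correlated at only -0.0378, 0.0649 and 0.00670. The main fit therefore did not use the letters as pairs. These values cannot exclude a shared litter or batch, since the labels do not say what a letter marks. With the letter as a replicate block in those 6 libraries, 5 genes of the set were higher and 1416 genes were called in all (8 and 1886 without the block), with Gapdh at 0.71, Slc16a1 at 4.19 and Pfkp at 0.82 not called with the block and called without it. Dlat was not tested in these 6 libraries.

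Log2 fold changes that changed sign belonged to genes not called. With the GC trend removed these were Hk1 (-0.10), Aldoa (-0.29), Tpi1 (-0.0448), Pkm (-0.0138) and Pfkfb4 (-0.0599). In the letters A to C, Aldoa gave -0.0244 with the replicate block and -0.0234 without it. Leaving out 1 library, Aldoa gave -0.0695 to 0.0843, Dld -0.0633 to 0.548 and Pdk3 -0.0399 to 0.406.

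Differences in isozyme shares (P7 minus adult, percentage points) changed sign for Hk1 per kilobase (-0.00567) and, with the replicate block, for Hk1 (-0.0192), Pfkl (-0.282) and Pfkp (6.10). Without 1 library they ran from -0.0138 to 0.00800 for Hk1, -7.49 to 3.82 for Pfkp and -1.98 to 1.35 for Mpc1. The shares of Aldoc (0.798 to 0.964) and Slc2a3 (-0.0156 to -0.00613) passed an adjusted p of 0.05 only without adult C, where both had an adjusted p = 0.0357 by exact permutation; with all 10 libraries a single share could not pass. Where not stated otherwise, the cause was not tested. Genes with few counts, such as Slc16a1, Dlat and Ldhb, are limited by depth. A lean of scarce genes towards P7 was not particular to this set. With no filter on low counts, the median log2 fold change over all 20865 genes was 0.24, against 0.05 in the main fit. Genes detected per library were 12454 to 14965 at P7 and 12270 to 13138 in adults. The part of this lean in the values of the scarce genes here was not tested.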

Other observations

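Of 6 genes of the malate-aspartate shuttle, which carries reducing power from cytosolic NADH into mitochondria, 1 was higher at P7 and 1 lower. They were the alternative aspartate-glutamate carriers, with Slc25a12 at 12.8 ± 3.93 CPM against 49.5 ± 19.8 CPM in the adult libraries (SD, n = 5 each) and Slc25a13 at 1.29 ± 0.646 against 0.489 ± 0.214 CPM. Their log2 fold changes were -1.96 ± 0.29 and 1.39 ± 0.48 (SE). Slc25a12 did not overlap between the ages and Slc25a13 did.

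Among 18 tested regulators of glycolytic genes and flux, 4 were higher (Hif1a, Prkab1, Sirt6 and Trp53) and 1 lower. Over all tested genes, the background of this list and of the shuttle, 13.8% were called higher and 13.9% lower. The lower gene was Max, the dimer partner of MYC, at 170 ± 30.8 CPM against 501 ± 135 CPM in the adult libraries (SD, n = 5 each), a log2 fold change of -1.56 ± 0.19 (SE) with no overlap. Prkab1, a subunit of the energy sensor AMPK, was at 275 ± 43.3 and 146 ± 54.6 CPM, with a log2 fold change of 0.92 ± 0.24 (SE).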
